A study of Mus musculus with 8 samples.

Results

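Ccn1 (older name Cyr61), Ccn2 (older name Ctgf) and Ankrd1 were followed in MLP-29, a line of mouse liver progenitor cells, after hepatocyte growth factor (HGF), which signals through the receptor Met. The 3 genes were taken by their annotated symbol and are represented by 6 of the 25697 probes on the array, as 3 of 16593 named genes. Ccn1 had 3 probes, Ccn2 had 1 and Ankrd1 had 2. All 6 were above background (detection p under 0.05) on every array.

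The 4 groups were control medium without HGF and HGF for 1, 6 and 24 h, each with replicates a and b on 1 Illumina bead array per replicate. All cultures, controls included, had been starved over 1 week and were kept in 2% bovine serum during stimulation, after growth in 10% serum. Cells of every time were lysed together, and the whole experiment was done 2 times to give the replicates. The control has no time of its own, and all values come from a single cell line. The HGF was recombinant, at a dose the sources here do not give. In the comparisons with control, time in the stimulation medium and HGF cannot be told apart.

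YAP and its relative TAZ are co-activators that the Hippo kinases keep out of the nucleus. Once in the nucleus they bind TEAD transcription factors, and Ccn1, Ccn2 and Ankrd1 are the target genes most often read as a measure of their activity. SRF is a second transcription factor with targets among these genes. It works either with ternary complex factors, which growth factor signalling through ERK switches on within minutes, or with MRTF cofactors, which respond to the state of actin. Ccn1 and Ccn2 encode secreted matricellular proteins that bind integrins and heparan sulfate proteoglycans, and Ankrd1 encodes an ankyrin repeat protein found in the nucleus and, in muscle, at the sarcomere.

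Of the 3 genes, 2 had an entry among the RefSeq promoter sequences of build GRCm38.p6. Those of Ccn1 and Ankrd1 are shown, and Ccn2 had no entry. Each line gives the 250 bases before the annotated start of the gene, 5′ to 3′ on the strand of the gene, which is the minus strand for both. Capitals mark the TEAD site letters GGAATG, searched for on both strands (CATTCC is the same site on the other strand).
Ccn1, chr3:145649986-145650235: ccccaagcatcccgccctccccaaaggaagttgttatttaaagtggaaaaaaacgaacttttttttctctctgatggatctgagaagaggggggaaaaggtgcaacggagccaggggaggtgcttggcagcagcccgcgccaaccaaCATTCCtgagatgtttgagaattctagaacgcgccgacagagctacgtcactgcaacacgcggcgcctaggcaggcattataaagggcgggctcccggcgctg
Ankrd1, chr19:36119845-36120094: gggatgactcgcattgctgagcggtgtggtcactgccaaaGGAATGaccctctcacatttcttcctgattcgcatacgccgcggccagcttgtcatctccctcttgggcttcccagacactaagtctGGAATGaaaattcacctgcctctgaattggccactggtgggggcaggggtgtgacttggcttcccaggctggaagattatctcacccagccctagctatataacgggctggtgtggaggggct

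The Ccn1 window held the TEAD letters 1 time, from 103 to 98 bases before the start. The Ankrd1 window held them 2 times, from 210 to 205 and from 123 to 118 bases before it. Among 32851 RefSeq promoter windows of the same length, 12.6% held these letters at least 1 time and 1.02% at least 2 times. The CArG box, the site of SRF, and the AP-1 site TGANTCA were searched on both strands too, and neither was in the 2 windows, against 1.47% and 6.75% of all windows. A match describes letters and not binding, and sites farther from the start were not searched.

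The arrays were alike in quality. Between 45.0% and 46.3% of probes were detected per array, median raw signals were 113 to 138 intensity units, and replicate arrays had correlations of 0.990 to 0.993 across genes, which are not independent replicates. Of the progenitor and biliary markers, 7 of 9 with a probe were detected, among them the keratin genes Krt7, Krt8, Krt18 and Krt19 and the transcription factor gene Sox9, while Afp and Prom1 were not. None of 11 stellate and fibroblast markers or of 7 endothelial markers was detected in any group, and these include Col1a1, Pdgfrb, Pecam1 and Cdh5. Of 8 hepatocyte markers Hnf4a alone was detected, and the albumin gene Alb was not. Of 6 haematopoietic markers, Cd14 alone was detected, and the summed normalized signal of that list was 14582 to 14829 in control cells, 19857 to 20345 at 1 h, 10007 to 10342 at 6 h and 15029 to 15667 at 24 h. Its part in the results was not tested.

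Changes below are log2 differences of group means ± SE from a limma fit over all 8 arrays and 8183 genes, with 2 arrays per group. Raw signals were background corrected, raised by 16 units, put on the log2 scale and then quantile normalized, so the change of a dim gene is understated. A gene counts as called where its p, adjusted by Benjamini-Hochberg over all genes tested, is under 0.05. Each gene is read from its brightest probe, and the other probes are given beside it. The RNA is that of whole cultures, in which fewer cells of a type and less RNA per cell cannot be told apart. What separates the 2 replicates beyond the repeat of the experiment is not stated, so p-values rest on the spread between these 8 arrays. The fit draws the spread of each gene toward that of all genes (prior SD 0.155, 3.66 prior degrees of freedom). SEs, intervals and p-values therefore do not rest on the gene's own spread alone.

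Ccn1 rose steeply at 1 h, was still higher than in control cells at 6 h, and was not called different from control at 24 h. Its brightest probe (ILMN_2794645) gave raw signals of 764 and 620 intensity units in control cells, 6824 and 5608 at 1 h, 1409 and 1114 at 6 h, and 653 and 646 at 24 h (replicates a and b). Both 1 h arrays and both 6 h arrays lay above both control arrays, and the arrays of different HGF times did not overlap. On the normalized log2 scale the means were 12.62 ± 0.08 at 1 h and 9.17 ± 0.01 in control cells (SD, n = 2 each). The difference of 3.46 ± 0.12 (adjusted p = 1.16e-05) is an 11.0-fold rise and the 13th largest increase of the 8183 genes. At 1 h, 2.63% of all genes were called higher than in control cells.

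At 6 h the Ccn1 mean was 10.27 ± 0.07, against 9.17 ± 0.01 in control cells, a difference of 1.11 ± 0.12 (adjusted p = 0.00169) or 2.15-fold. By then 9.28% of all genes were called higher. The fall between the HGF times was called in each step. Ccn1 was lower at 6 h than at 1 h (-2.35 ± 0.12, adjusted p = 0.000132, among 9.04% of genes called lower). It was lower at 24 h than at 6 h (-1.25 ± 0.12, adjusted p = 0.00182, among 6.34% of genes called lower). Between 24 and 1 h the difference was -3.60 ± 0.12 (adjusted p = 9.03e-06, among 4.85%), the 12th steepest decrease between these times.

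At 24 h Ccn1 averaged 9.02 ± 0.11 and control cells 9.17 ± 0.01 (SD, n = 2 each). The difference was -0.15 ± 0.12 with a 95% interval of -0.43 to 0.13 (adjusted p = 0.543). In the order of its levels, 1 h stood above 6 h and 6 h above control, each by a called difference, while the difference between 24 h and control was not called. The values within each replicate were close: at 1 h the change was 3.40 in replicate a and 3.51 in replicate b, and at 6 h it was 1.06 and 1.15.

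The other Ccn1 probes gave the same course at lower signal. Probe ILMN_2710253 read 2169 and 1917 intensity units at 1 h, against 262 and 236 in control cells, a change of 3.63 ± 0.24 (adjusted p = 0.000294 over 11325 probes). Probe ILMN_1235571 read 1866 and 1862 at 1 h, against 259 and 246 in control cells, a change of 3.46 ± 0.22 (adjusted p = 0.000214). At 6 h both were called higher than in control cells too (1.37 ± 0.24 and 0.98 ± 0.22, adjusted p = 0.00929 and 0.019). At 24 h neither was called, and the signs differed between them (0.16 ± 0.24 and -0.08 ± 0.22). At that time ILMN_2710253 read 370 units in replicate a and 231 in replicate b, the widest spread of any Ccn1 probe on the log2 scale.

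**Figure D1:**
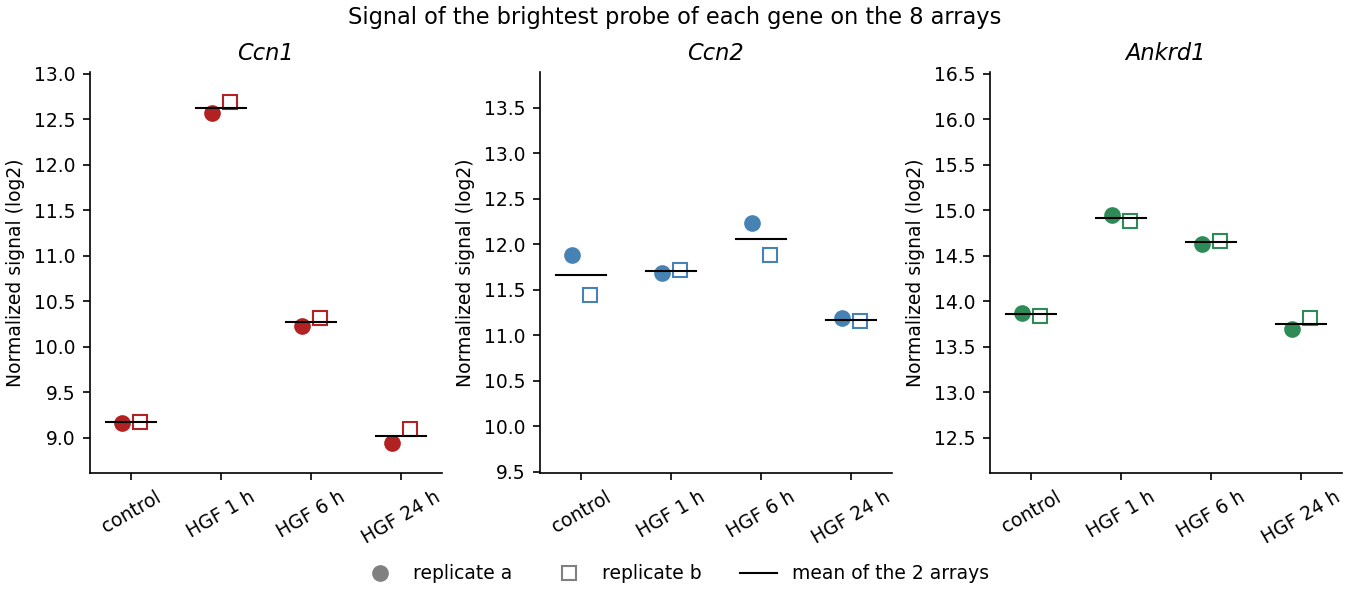
Normalized log2 signal (vertical axes, each spanning the same range) of the brightest probe of Ccn1, Ccn2 and Ankrd1 in control cells and after HGF for 1, 6 and 24 h. Filled circles are replicate a, open squares replicate b, and lines the mean of the 2 arrays. Ccn1 and Ankrd1 are high at 1 and 6 h and near control at 24 h, while the Ccn2 groups lie within a narrower range.

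Ankrd1 was higher than in control cells at 1 h and at 6 h and was not called different from control at 24 h. Its brightest probe (ILMN_2950286) read 16672 and 13937 intensity units in control cells, 33800 and 25343 at 1 h, 28849 and 22307 at 6 h, and 14168 and 14321 at 24 h. On the raw scale and after normalization, both 1 h and both 6 h arrays stood above all control and 24 h arrays. The normalized means were 14.91 ± 0.04 at 1 h and 13.86 ± 0.02 in control cells (SD, n = 2 each), a difference of 1.06 ± 0.11 (adjusted p = 0.00297) or 2.08-fold. At 6 h the mean was 14.65 ± 0.02, against 13.86 ± 0.02 in control cells, a difference of 0.79 ± 0.11 (adjusted p = 0.00429) or 1.73-fold. Ranked among all genes, these were the 141st and the 372nd largest increases.

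Between 6 and 1 h Ankrd1 did not pass the threshold (-0.27 ± 0.11, 95% interval -0.53 to -0.00, adjusted p = 0.147). The lower level at 24 h than at 6 h was called (-0.89 ± 0.11, adjusted p = 0.00419), as was that at 24 h against 1 h (-1.16 ± 0.11, adjusted p = 0.00184). Against control, 24 h gave -0.10 ± 0.11 with a 95% interval of -0.37 to 0.16 (adjusted p = 0.653). In the order of the Ankrd1 levels, both 1 h arrays lay above both 6 h arrays after normalization, but not on the raw scale. The difference missed the adjusted threshold. The level at 6 h stood above control by a called difference, and that between 24 h and control was not called.

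The other Ankrd1 probe (ILMN_2625451) read 14820 and 10896 units at 1 h and 10629 and 9451 at 6 h, against 6392 and 5497 in control cells. It gave 1.16 ± 0.13 at 1 h and 0.83 ± 0.13 at 6 h (adjusted p = 0.00416 and 0.0065). At 24 h it read 5417 and 5190 units, below both control arrays, and gave -0.19 ± 0.13 (adjusted p = 0.443). Ankrd1 also varied little within groups: the pooled SD was 0.05 on the log2 scale, smaller than that of all but 2.97% of genes, against a median of 0.16. The SD of Ccn1 was 0.08.

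Ccn2 was not called against control at any time. Its single probe (ILMN_2909150) read 4404 and 2686 intensity units in control cells, 3691 and 2840 at 1 h, 5525 and 3237 at 6 h, and 2694 and 2384 at 24 h. The control arrays spanned both 1 h arrays. After normalization both 6 h arrays (12.23 and 11.89) lay above both control arrays (11.88 and 11.45), but the lower 6 h array and the higher control array nearly met, and both 24 h arrays (11.19 and 11.15) lay below them.

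The change of Ccn2 at 1 h was 0.04 ± 0.18, with a 95% interval of -0.38 to 0.45 (adjusted p = 0.938). Replicate a was lower by 0.20 at 1 h (-0.20) and replicate b was higher by 0.27. At 6 h the change was 0.39 ± 0.18, with an interval of -0.02 to 0.81 (adjusted p = 0.154), made up of 0.35 in replicate a and 0.44 in replicate b. At 24 h it was -0.49 ± 0.18, with an interval of -0.90 to -0.08 (adjusted p = 0.197), made up of -0.69 and -0.30. All of these intervals lie within 1 log2 unit of no change.

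Between HGF times, Ccn2 was lower at 24 h than at 6 h (-0.89 ± 0.18, adjusted p = 0.0181), with means of 11.17 ± 0.03 at 24 h and 12.06 ± 0.24 at 6 h (SD, n = 2 each). That call rests on few arrays. It was lost without HGF 6 h replicate a (-0.71, adjusted p = 0.0924), without HGF 24 h replicate a (-0.91, adjusted p = 0.0782) and without HGF 24 h replicate b (-0.87, adjusted p = 0.0963), as well as with median scaling of the arrays (-0.85, adjusted p = 0.0666). The differences between 6 and 1 h (0.36 ± 0.18, adjusted p = 0.207) and between 24 and 1 h (-0.53 ± 0.18, adjusted p = 0.112) were not called. In the order of its levels, 6 h, 1 h, control and 24 h, no difference between neighbours passed the adjusted threshold, although the interval for 24 h against control excludes 0. The pooled SD of Ccn2 within groups was 0.20, and 64.5% of genes had a smaller one. Without control replicate a its change was 0.25 at 1 h and 0.61 at 6 h, and without control replicate b it was -0.18 and 0.18 (adjusted p from 0.0794 to 0.645).

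**Figure D2:**
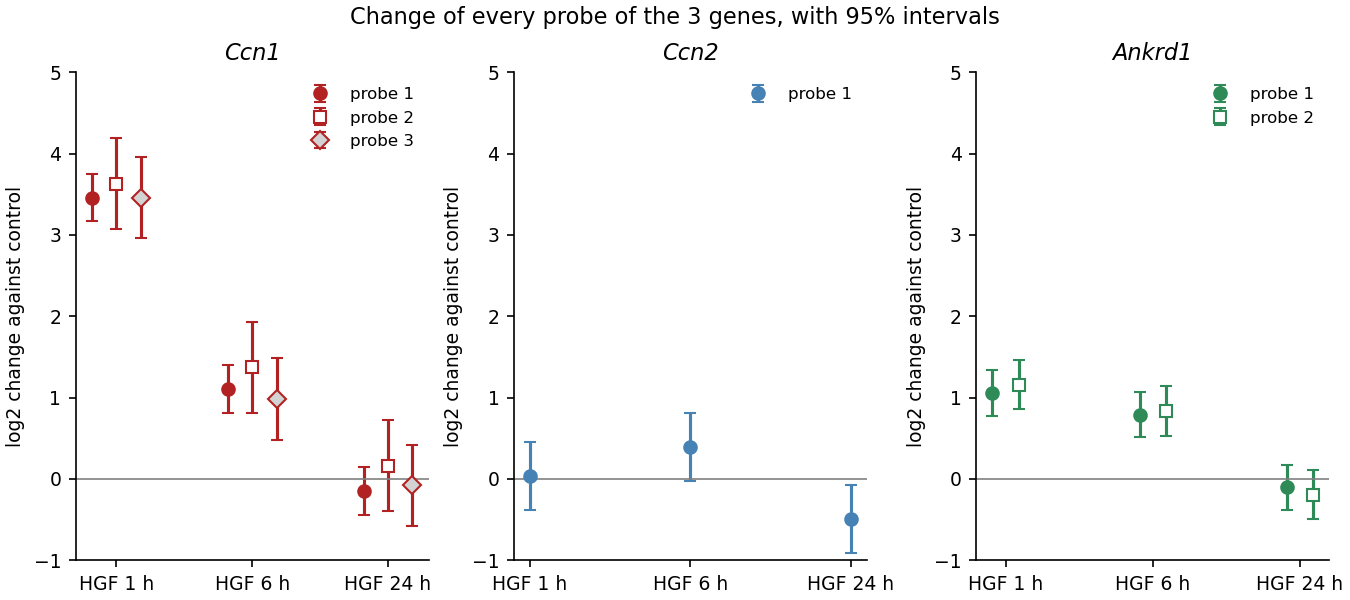
Log2 change against control (vertical axis) of each of the 6 probes after HGF for 1, 6 and 24 h, with 95% intervals from the fit over 11325 probes. Probes are numbered from the brightest. The 3 Ccn1 probes lie between 3.46 and 3.63 at 1 h, the 2 Ankrd1 probes between 1.06 and 1.16, and the Ccn2 probe at 0.04.

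The median change of all genes was -0.05 at 1 h, -0.03 at 6 h and -0.02 at 24 h. At 1 h Ccn2 ranked 2946th of 8183 among increases. At 6 h Ccn2 ranked 1258th among increases. At 24 h Ccn2 ranked 637th among decreases. No gene was called at 24 h against control (0% of genes tested) by limma, although 1626 genes had an unadjusted p under 0.05. With the replicate as a block, 440 genes (5.38%) passed at 24 h, and Ccn1, Ccn2 and Ankrd1 were not among them (adjusted p = 0.443 for Ccn1, 0.104 for Ccn2 and 0.607 for Ankrd1). A joint limma F test of the 3 times against control, made beside the planned comparisons, passed for 23.6% of genes. It gave an adjusted p of 1.83e-05 for Ccn1, 0.040 for Ccn2 and 0.00177 for Ankrd1. Ccn2 thus passed the joint test but at no single time against control. The joint test also takes in differences between the HGF times, and for Ccn2 that of 24 h against 6 h was called. Whether the change of one of the 3 genes differs from that of another was not tested.

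**Figure D3:**
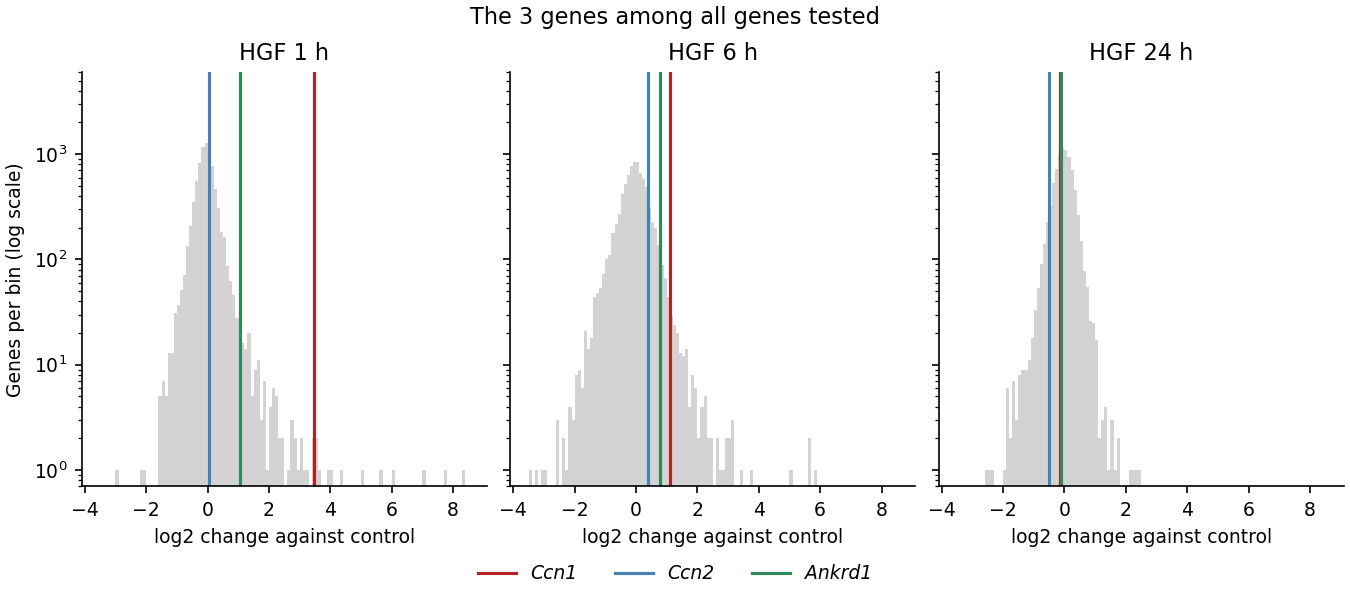
Number of genes (vertical axis, log scale) by log2 change against control in bins of 0.1, for HGF 1, 6 and 24 h and all 8183 genes, with vertical lines for the 3 genes. Ccn1 is at 3.46 at 1 h and 1.11 at 6 h, Ankrd1 at 1.06 and 0.79, and Ccn2 at 0.04 and 0.39. At 24 h the Ccn1 line is nearly covered by that of Ankrd1.

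The genes whose course was most like that of each of the 3 were found by the root mean square (RMS) difference over the 8 arrays. Each gene was first centred on its own mean. Since these same arrays chose the genes, a pattern of calls like that of Ccn1, Ccn2 or Ankrd1 follows from the choice. For Ccn1 these were Tcim (0.16), Egr1 (0.19), the gene of an immediate early zinc finger factor, and Phlda1 (0.32), the gene of a pleckstrin homology-like domain protein. Tcim changed by 3.12, 1.02 and -0.36 at 1, 6 and 24 h, Egr1 by 3.45, 0.91 and -0.25, and Phlda1 by 2.82, 1.20 and -0.04. All of these were called at 1 and 6 h and not at 24 h, and the 6 h call of Egr1 was lost when control replicate a (adjusted p = 0.131), HGF 6 h replicate a (0.112) or HGF 6 h replicate b (0.0643) was left out.

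For Ankrd1 the nearest were Sgk1 (RMS difference 0.12), the gene of a serum-inducible kinase, Rap2b (0.13), the gene of a small GTPase, and Fhl2 (0.13), the gene of a LIM domain protein and itself an SRF target. They changed by 1.02, 0.82 and 1.01 at 1 h, and by 0.65, 0.64 and 0.70 at 6 h. All of these were called at both times, and each lost its call when some single array was left out (adjusted p up to 0.115). For Ccn2 they were Yipf4 (0.12), Sdc4 (0.12), the gene of the heparan sulfate proteoglycan syndecan 4, which CCN proteins bind, and Lekr1 (0.14). None of these was called at any time against control, and with the block Sdc4 was called lower at 24 h (-0.52, adjusted p = 0.0438, against 0.0969 without it). Within an RMS difference of 0.25 lay 326 genes for Ccn2, 47 for Ankrd1 and 2 for Ccn1. A fixed distance takes in more genes around small changes, so these counts do not rank how common each course is. Between the 3 genes themselves, the RMS difference was 1.36 for Ccn1 and Ccn2, 1.01 for Ccn1 and Ankrd1, and 0.39 for Ccn2 and Ankrd1. This measure grows with the size of the changes, and the ranks gave another order. Ankrd1 was the 91st nearest gene to Ccn1 but the 3470th nearest to Ccn2. Ccn2 was the 1147th nearest to Ccn1.

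Among SRF and its cofactors, Srf itself rose at 1 h (1.06 ± 0.17, adjusted p = 0.0138), with 0.53 ± 0.17 at 6 h (adjusted p = 0.0578, and 0.0388 with the replicate as a block) and 0.10 ± 0.17 at 24 h. The 1 h call was lost with median scaling (adjusted p = 0.0772), without control replicate a (0.103) and without HGF 1 h replicate a (0.0634). Elk3, a ternary complex factor gene, gave 0.81 ± 0.24 at 6 h (adjusted p = 0.0468). That call was lost with median scaling (0.68, adjusted p = 0.0859) and with no detection filter (adjusted p = 0.0757). Leaving out control replicate b (change 0.55), HGF 6 h replicate a (0.96) or b (0.66), or either 24 h array (0.81) also ended it. The MRTF genes Mrtfa and Mrtfb, Elk4 and Myocd did not pass the detection filter.

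The immediate early SRF targets of the ternary complex type were mostly called higher at 1 h. Of 12 measured, 10 rose and none fell at 1 h, with a median change of 2.74, against 2.63% of all genes called higher and a median of -0.05. Examples beside Egr1 were the AP-1 subunit genes Fosb (8.36 ± 0.30) and Fos (6.02 ± 0.44) and the zinc finger gene Egr2. Egr2 was below background in control cells and at least 145-fold higher at 1 h. It passed the detection filter only through HGF groups, so its rise was in part fixed by that filter. Egr2 is among the 10, while Egr3, Egr4 and Nr4a1 did not pass the filter and are not counted. This list and those below were chosen with earlier results of these data known. Their counts beside the shares of all genes are therefore a description and not a test. At 6 h 5 of the 12 rose and none fell (median 0.71), against 9.28% of all genes called higher, and without control replicate a or HGF 6 h replicate b 3 rose. At 24 h none was called (median -0.08).

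Of the actin-linked SRF targets of the MRTF type, more were called at 6 h than at 1 h, as was also so over all genes. Of 17 measured at 1 h, 1 rose (Fhl2) and none fell, against 2.63% of all genes called higher and 2.16% lower. The median of the list was 0.19. With the block 2 rose and 1 fell, against 4.58% of all genes called higher and 4.46% lower in that fit. Without control replicate a, control replicate b or HGF 1 h replicate a none rose at 1 h, and the difference between these times was not tested for the list. At 6 h 9 rose and 2 fell, with a median of 0.62, against 9.28% of all genes called higher and 12.1% lower. The 4 of smallest adjusted p that rose were Cdc42ep3 (1.23 ± 0.17, adjusted p = 0.00362), a gene of a Cdc42 effector, Myl12a (0.77 ± 0.12), a myosin light chain gene, Cnn2 (1.20 ± 0.20), the gene of a calponin, and Tpm3 (0.84 ± 0.14), a tropomyosin gene. The LIM domain genes Fhl1 (-1.66 ± 0.35) and Lima1 (-1.10 ± 0.22) fell. Without control replicate a 4 rose, without HGF 6 h replicate b 5 rose, and with either left out none fell. With median scaling 5 rose, and the Myl12a call was among those lost (0.60, adjusted p = 0.0656). None was called at 24 h.

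None of the other YAP/TAZ-TEAD targets was called higher at 1 h. For the 17 measured at that time the median change was -0.04, and -0.02 with genes below background set at their bounds or at 0. None rose, which is near the 2.63% of all genes called higher, and 2 fell, against 2.16% called lower. The 2 were Edn1 (-2.93 ± 0.28, adjusted p = 0.00167), the gene of endothelin 1, and Birc5 (-0.81 ± 0.15, adjusted p = 0.0251), the gene of survivin, a protein of mitosis. Without control replicate a, HGF 1 h replicate a or HGF 1 h replicate b the Birc5 call was lost (adjusted p = 0.135, 0.123 and 0.0919). At 6 h 1 rose and 3 fell (median -0.11), against 9.28% of all genes called higher and 12.1% lower. With the block 2 rose and 3 fell, where 12.5% of all genes were called higher and 16.3% lower. Without control replicate a 2 rose. Igfbp3, the gene of an insulin-like growth factor binding protein, was below background in control cells and at least 4.46-fold higher at 6 h. It passed the detection filter only through HGF groups, so its rise was in part fixed by that filter. Fgf1 (-1.75 ± 0.25), a fibroblast growth factor gene, Gadd45a (-1.98 ± 0.32), a growth arrest gene, and Birc5 (-1.09 ± 0.15) were lower. None was called at 24 h. With the block at 24 h, 1 rose and 1 fell among these targets, 1 rose among the ternary complex type SRF targets, and 1 rose and 2 fell among those of the MRTF type. In that fit 1.99% of all genes were called higher and 3.39% lower.

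The transcripts of YAP and TAZ were not called at any time. Yap1, the gene of YAP, gave -0.06 ± 0.11, -0.07 ± 0.11 and 0.02 ± 0.11 at 1, 6 and 24 h (adjusted p = 0.807, 0.720 and 0.935). Wwtr1, the gene of TAZ, gave 0.20 ± 0.21, 0.49 ± 0.21 and 0.38 ± 0.21 (adjusted p = 0.671, 0.147 and 0.370). Of the 18 Hippo, YAP/TAZ and TEAD genes measured, none was called at 1 h, with a median of -0.10 (-0.07 with genes below background set at their bounds or at 0), and none at 24 h. With the block, with median scaling or without HGF 1 h replicate b, 1 fell at 1 h. At 6 h 3 rose and 1 fell, against 9.28% of all genes called higher and 12.1% lower. Of these, Frmd6 (1.35 ± 0.16), the gene of a FERM domain protein upstream of the Hippo kinases, Rassf1 (0.76 ± 0.14), a scaffold gene, and Tead4 (1.09 ± 0.24) were higher and Tead2 (-0.50 ± 0.15, adjusted p = 0.0483) was lower. Frmd6 alone rose without control replicate b or without HGF 6 h replicate b. The Tead4 call was also lost without control replicate a (adjusted p = 0.0721), and that of Tead2 without any 1 of the control, 6 h or 24 h arrays (adjusted p up to 0.177). Tead1, Tead3 and Lats2 did not pass the detection filter, and Lats1 had no named probe.

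**Figure D4:**
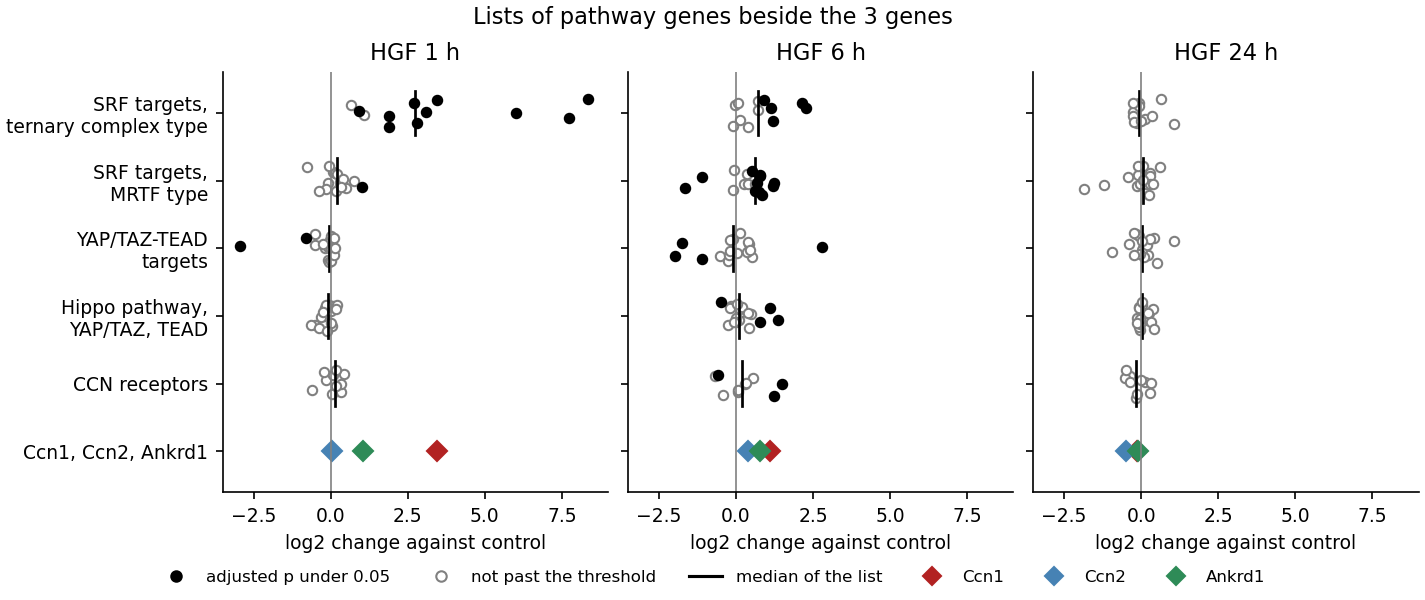
Log2 change against control (horizontal axis) of the measured genes of 5 lists and of Ccn1, Ccn2 and Ankrd1 after HGF for 1, 6 and 24 h. Filled circles passed an adjusted p of 0.05, open circles did not, vertical ticks are list medians, and diamonds are the 3 genes; Egr2 and Igfbp3, below background in control cells, are drawn at their fitted change. The ternary complex type SRF targets lie farthest right at 1 h (median 2.74). The median of the YAP/TAZ-TEAD targets at 1 h is near 0 (-0.04), with Edn1 at -2.93.

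Among the receptors of CCN proteins, none of 10 measured was called at 1 h or, without the block, at 24 h. With it Sdc4 fell at 24 h. At 6 h the integrin subunit genes Itga6 (1.48 ± 0.18, adjusted p = 0.00241) and Itgav (1.24 ± 0.21, adjusted p = 0.0074) rose, and Lrp1 (-0.57 ± 0.16, adjusted p = 0.0382), a lipoprotein receptor gene, was lower, a call that was lost in 5 of the 8 fits with 1 array left out (adjusted p up to 0.182). Over all genes 9.28% were called higher and 12.1% lower at 6 h. With the block a second gene was lower at 6 h, Igf2r, the gene of the mannose 6-phosphate receptor (-0.69, adjusted p = 0.0130, against 0.0999 without it). Of the CCN family beside Ccn1 and Ccn2, Ccn4 was the 1 gene measured. It was lower at 6 h (-1.08 ± 0.32, adjusted p = 0.0491, and 0.00208 with the block). Leaving out any 1 of the control, 6 h or 24 h arrays ended that call (changes from -1.41 to -0.75). So did taking the mean of all kept probes (-0.82, adjusted p = 0.151) and using no detection filter (adjusted p = 0.0821). Ccn5 did not pass the detection filter, nor did the Ankrd1 relatives Ankrd2 and Ankrd23 or its muscle partners Des, Ttn, Mypn and Casq2.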

How the data were processed

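RNA of MLP-29 cells was hybridised to Illumina Mouse8 V2 arrays, per the labels' protocols. The submitters' processing notes name GenomeStudio 1.9.0. The authors' non-normalized table holds raw intensity per probe, deposited without normalization between arrays, and a detection p-value per probe and array, deposited with it. Their normalized intensity table, also deposited, was an alternative here. It is linear and not centred (column medians 129.8 or 129.9), and how it was normalized is not given in the sources here.

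Probes were named through the supplied platform annotation: 23978 probes had 1 symbol, 0 several and 1719 none. In limma 3.58.1 (R 4.3.3), intensity was background corrected by normexp (offset 16), whose noise parameters came from detection p-values. Log2 and then quantile normalization followed, while the deposited values are linear. Kept were probes detected (p under 0.05) in both replicates of 1 group or more (11325 probes, 8183 genes), and the brightest probe stands for a gene. One fit over all 8 arrays, with 4 residual degrees of freedom and no block, was adjusted by Benjamini-Hochberg, and was tested on simulated data. Promoters came from RefSeq (GRCm38.p6). A gene below background in a whole group has a lower bound, from the lowest detected signal of each array.

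The members and lists were chosen with earlier results of these data known. Named are the 3 genes, the up to 4 lowest adjusted p in each list at each time, fixed pathway genes, and the 3 nearest genes of each. Where a count of 5 or fewer is given, other members were named after their values were seen. Replicate letters imply shared repeats. The difference of a minus b correlated at 0.194 to 0.443 between groups, and the block's values stand beside list counts that it moved by over 1.5 times. Alternatives were no background correction, median scaling, the authors' table, other filters, offset 50, mean of probes, the block and each array left out. The number of arrays limits the precision.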

Additional observations from a re-analysis of the deposited data

Results flagged for a closer look

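The tests between HGF times showed that the response of all 3 genes differed between times. For Ccn1 the difference was -2.35 between 6 and 1 h, -1.25 between 24 and 6 h and -3.60 between 24 and 1 h. For Ankrd1 it was -0.893 between 24 and 6 h and -1.16 between 24 and 1 h, and for Ccn2 it was -0.886 between 24 and 6 h. Each is a log2 difference with an adjusted p of at most 0.0181 by limma, and both replicates had the same sign in each. The Ccn2 difference is the one whose call was lost when single arrays were left out.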

How the results depend on the processing

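Of 18 comparisons of the 3 genes, 17 kept their side of the threshold under all 16 alternatives. The exception was Ccn2 at 24 h against 6 h, at -0.847 with median scaling and from -1.06 to -0.714 over the 8 fits with 1 array left out. Ccn1 at 1 h ranged from 3.20 to 3.52 and Ankrd1 at 1 h from 0.956 to 1.11. The replicate block changed no call of the 3 genes. Ccn2 at 1 h, not called, changed sign with median scaling (-0.08) and without control replicate b (-0.18). Median scaling moved the median of all genes at 6 h to -0.16, against -0.03 with quantile normalization.

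The number of genes called at 1 h was 392, 740 with the replicate block, and 79 to 325 with 1 array left out (79 without control replicate a). At 6 h it was 1752, and 857 to 1612 with 1 array left out. At 24 h it was 0, with 75 for no background correction, 103 for the authors' table, 1 for the stricter filter, 1 for offset 50, and 440 with the block. Of 52 called comparisons of other named genes, 25 lost their call under some alternative and 0 reversed. Why these counts moved was not tested. Ccn2 has 1 probe, so its values could not be checked with another.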
